A study of Saccharomyces cerevisiae with 4 samples.

Results

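The genes described here are 10 yeast open reading frames (ORFs) chosen by name for their place in arginine and proline metabolism, out of 6301 ORFs listed on the array. They comprise CAR1 (YPL111W) and CAR2 (YLR438W) of arginine breakdown, PUT1 (YLR142W) and PUT2 (YHR037W) of proline breakdown, PRO1 (YDR300C), PRO2 (YOR323C) and PRO3 (YER023W) of proline synthesis, and the regulator genes PUT3 (YKL015W), ARG81 (YML099C) and UME6 (YDR207C). Each ORF was measured on 4 two-color arrays, on which cDNA from Saccharomyces cerevisiae S288c, a haploid laboratory strain, kept for 12 h in nitrogen-poor minimal medium (MM) was hybridized against cDNA from the same strain in nitrogen-rich synthetic complete medium (SC). Reverse transcription was primed by oligo-dT mixed with a multi-targeted primer (MTP), a degenerate primer that matches most yeast mRNAs. The value of a spot is the log2 ratio of MM over SC, so a positive value means more transcript in MM.

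The cells had grown in SC at 30 C to mid log phase (OD600 of 0.4) before they were moved to MM, which held no amino acids or adenine and had ammonium sulfate limited to 0.025%. The loss of amino acids and adenine, the low ammonium and the 12 h of incubation therefore differed together between the media and cannot be told apart. The titles place MM in Cy5 on an array pair and SC in Cy5 on the other pair, each numbered as replicates 1 and 2. The channel descriptions assign the dyes the other way round, but the direction of the ratios did not rest on them. Replicates were separate reverse transcription reactions, and no source used here says that they were separate cultures, so p-values measure the spread between these arrays, which may be technical. Values below are listed in the order MM in Cy5 by title, replicates 1 and 2, then SC in Cy5, replicates 1 and 2.

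Between 5548 and 5992 ORFs carried a value on an array, since spots that were not well measured carry none, and the array medians lay between -0.03 and 0.11. Pearson's r across ORFs was 0.96 and 0.936 for pairs of arrays of the same dye orientation and 0.898 to 0.934 for opposite pairs. In limma, 5956 ORFs with values on at least 3 arrays were tested, and their median log2 ratio was 0.03, with quartiles of -0.30 and 0.33. In a bulk culture, fewer cells with a transcript and less of it per cell cannot be told apart, and ratios scaled to the mean of the spots do not show a change in total mRNA.

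Arginine is broken down in the yeast cytosol. Arginase (CAR1) splits it into ornithine and urea, and ornithine aminotransferase (CAR2) turns ornithine into a semialdehyde that closes to pyrroline-5-carboxylate. PRO3 reduces this to proline, and proline is oxidized in the mitochondrion by PUT1 and PUT2 to glutamate. Synthesis of proline runs from glutamate in the cytosol through PRO1 and PRO2 to the same intermediate and then again through PRO3, so PRO3 stands on both routes. Arginine and proline are poorer nitrogen sources than ammonium or glutamine, and their breakdown is known to be held down by nitrogen catabolite repression while better sources last. Put3 activates PUT1 and PUT2 when proline is present, Arg81 senses arginine in the ArgR/Mcm1 complex, and Ume6 represses CAR1, CAR2 and early meiotic genes.

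Of the 10 genes, 9 had values on at least 3 arrays and entered the test, and 8 of them had values on all 4. At an adjusted p of 0.05 from limma, 3 of the 9 were higher in MM (CAR1, CAR2 and PRO3), where 33.8% of all ORFs tested were called higher. A further 5 were lower (PUT2, PRO1, PRO2, PUT3 and ARG81), where 31.5% of all ORFs were called lower. UME6 did not pass. PUT1 had values on 2 arrays and was not part of this test. With 65.3% of all ORFs called, the number of calls among these genes is no result about them, and the directions by role follow.

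**Figure D1:**
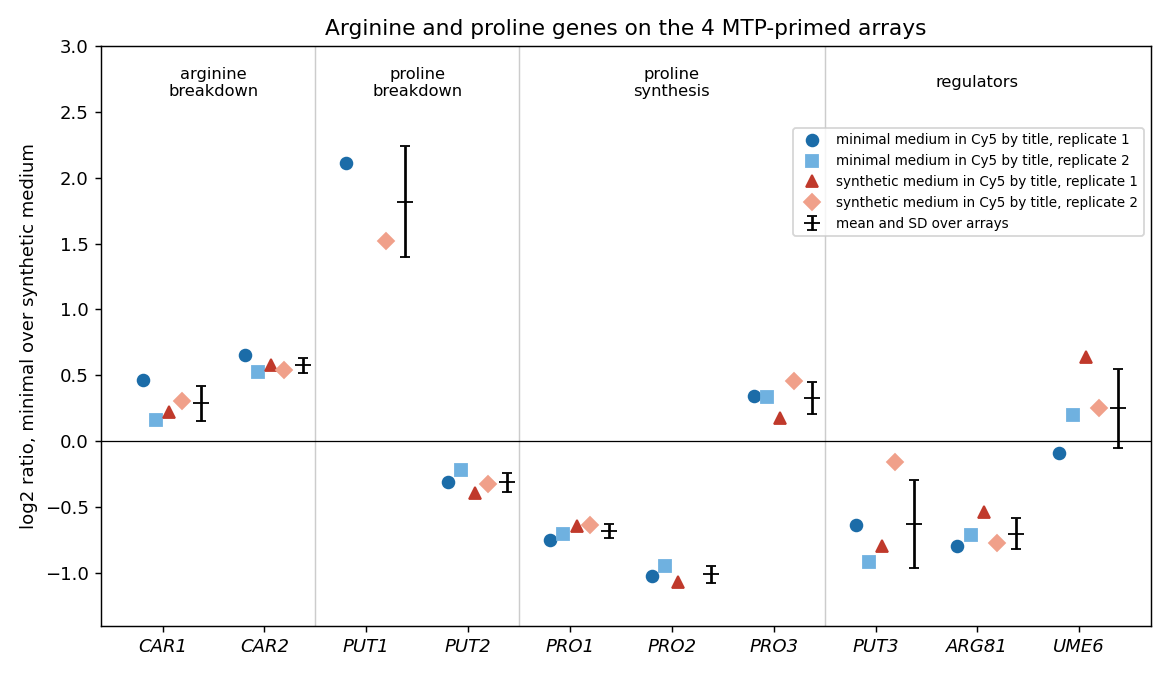
Log2 ratio of MM over SC (vertical axis) of the 10 genes, grouped by role, with a symbol for each array and the mean with SD over arrays beside it. PUT1 lies highest with 2 arrays, at 2.11 and 1.52, PRO2 lowest with a mean of -1.01, and PRO3 lies above 0 on every array while PRO1 and PRO2 lie below.

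Both enzymes of arginine breakdown were modestly higher in MM. CAR1 had log2 ratios of 0.46, 0.16, 0.22 and 0.30, a mean of 0.29 ± 0.13 (SD, n = 4 arrays) or 1.22-fold (adjusted p = 0.00881 from limma). CAR2 had log2 ratios of 0.66, 0.52, 0.58 and 0.54, a mean of 0.58 ± 0.06 (SD, n = 4 arrays) or 1.49-fold (adjusted p = 0.000135 from limma). Every array showed the increase for both genes, and every array gave CAR2 the larger ratio. The difference in log2 ratio, CAR2 minus CAR1, was 0.19, 0.37, 0.36 and 0.24 on the arrays, with a mean of 0.29 ± 0.09 (SD, n = 4 arrays). Among 6045 ORFs with at least 2 values, CAR2 ranked 801 and CAR1 ranked 1701 from the highest mean log2 ratio, so neither lay far out in the distribution.

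The enzymes of proline breakdown moved apart. PUT1, the proline oxidase of the mitochondrion, had log2 ratios of 2.11 on the first array with MM in Cy5 and 1.52 on the second with SC in Cy5, and no value on the others. Its mean of 1.82 ± 0.42 (SD, n = 2 arrays) corresponds to 3.52-fold and ranked 85 of 6045 from the highest. A fit of all ORFs with values on at least 2 arrays, of which 64.9% were called, gave PUT1 an adjusted p of 0.000619 from limma, with a 95% confidence interval of 1.39 to 2.25 that borrows its spread from the other ORFs. Having values on exactly 2 arrays was true of 89 ORFs, and 1 of the others had a mean above that of PUT1. The arrays with a PUT1 value were of opposite dye orientation, so the increase was seen in both.

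PUT2, the pyrroline-5-carboxylate dehydrogenase that completes the conversion of proline to glutamate, was lower in MM on every array. Its log2 ratios were -0.31, -0.22, -0.39 and -0.33, a mean of -0.31 ± 0.07 (SD, n = 4 arrays) with a limma adjusted p of 0.00269. The decrease was 1.24-fold, small beside the spread of all ORFs, of which 24.2% had a lower mean. On the arrays with values for both genes, the log2 ratio of PUT1 exceeded that of PUT2 by 2.43 and 1.85, which is 4.4-fold in the mean. The steps of this pathway that follow each other thus had ratios of opposite sign in the same hybridizations.

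The genes of proline synthesis also split. PRO1, the glutamate kinase of the first step, had log2 ratios of -0.75, -0.71, -0.64 and -0.64, a mean of -0.68 ± 0.05 (SD, n = 4 arrays) with a limma adjusted p of 5.75e-05. PRO2, the reductase of the second step, had -1.02, -0.94 and -1.07 and no value on the second array with SC in Cy5, a mean of -1.01 ± 0.06 (SD, n = 3 arrays) with a limma adjusted p of 7.26e-05. PRO2 was the lowest of the 10 genes, at a 2.02-fold decrease, and 4.57% of the ORFs ranked had a lower mean. PRO3, the pyrroline-5-carboxylate reductase of the last step, was higher instead, with 0.34, 0.34, 0.17 and 0.46, a mean of 0.33 ± 0.12 (SD, n = 4 arrays) with a limma adjusted p of 0.00398. No array of PRO3 overlapped any array of PRO1 or PRO2.

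Within arrays, the log2 ratio of PRO3 exceeded that of PRO1 by 0.81 to 1.10, with a mean of 1.01 ± 0.13 (SD, n = 4 arrays). It exceeded that of PRO2 by 1.24 to 1.37, with a mean of 1.30 ± 0.06 (SD, n = 3 arrays). PRO1 lay above PRO2 by 0.24 to 0.43 (n = 3 arrays). PRO3, which takes part in arginine breakdown as well, had a ratio near that of CAR1. CAR1 minus PRO3 was positive on 2 arrays and negative on the other 2, with a mean difference in log2 ratio of -0.04 ± 0.15 (SD, n = 4 arrays), so this pair did not differ beyond its spread. CAR2 lay above PRO3 on all 4 arrays, by 0.08 to 0.41.

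**Figure D2:**
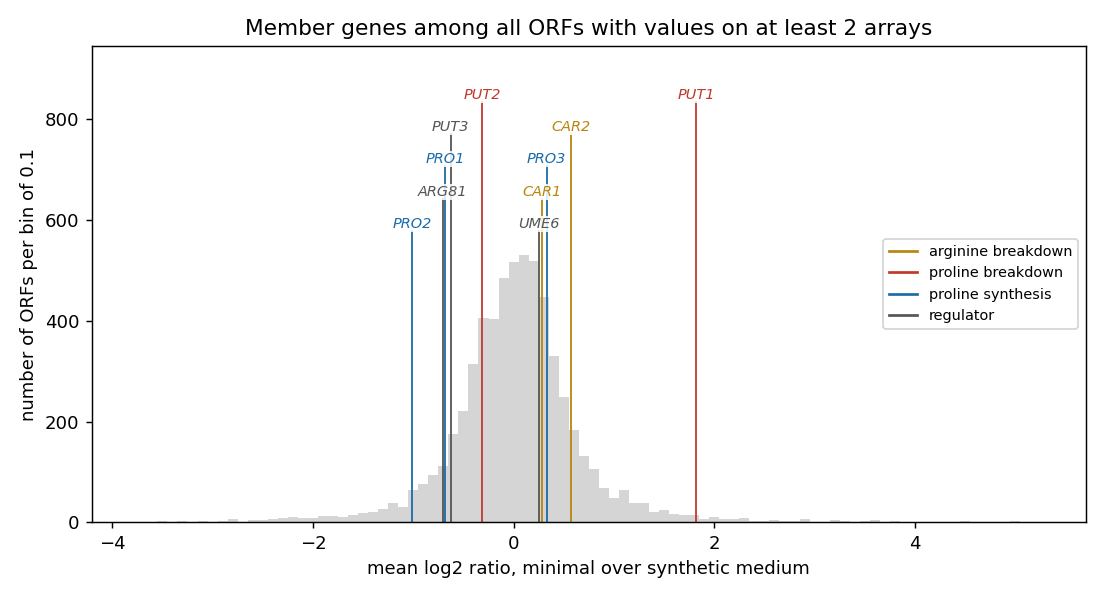
Mean log2 ratio of MM over SC (horizontal axis) of all 6045 ORFs with values on at least 2 arrays, as a histogram in bins of 0.1, with a vertical line for each of the 10 genes colored by role (line heights only separate the names). PUT1 alone of the 10 lies in the far upper tail, at 1.82, and PRO2 is the lowest at -1.01.

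Breakdown and synthesis of proline were then compared gene by gene within each array, as the difference of log2 ratios, so that an offset of a whole array cancels. These differences are given without a test, because they combine genes that were chosen together. PUT2 minus PRO1 was 0.44, 0.49, 0.25 and 0.31, a mean of 0.37 ± 0.11 (SD, n = 4 arrays). PUT2 minus PRO2 was 0.71, 0.72 and 0.68, a mean of 0.70 ± 0.02 (SD, n = 3 arrays). PUT2 was thus lower in MM, but by less than either gene committed to synthesis, and on every array that allows the comparison. Against PRO3 the order turned, with PUT2 minus PRO3 at -0.66, -0.56, -0.56 and -0.79, a mean of -0.64 ± 0.11 (SD, n = 4 arrays).

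PUT1 lay above all 3 genes of synthesis wherever both spots had values. PUT1 minus PRO1 was 2.86 and 2.16, PUT1 minus PRO3 was 1.77 and 1.06, and PUT1 minus PRO2 could be taken on 1 array, at 3.14. Means over the roles could be formed on the first array with MM in Cy5 alone, the only array with a value for all 5 enzymes of proline. There the mean of PUT1 and PUT2 exceeded that of PRO1, PRO2 and PRO3 by 1.38 on the log2 scale. This single value rests on PUT1. With PUT2 alone standing for breakdown, a choice made after the values were seen, the difference was 0.17 ± 0.05 (SD, n = 3 arrays), with a range of 0.12 to 0.22. A mean over either role also hides genes of opposite sign, as the plot of gene-by-gene differences shows.

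**Figure D3:**
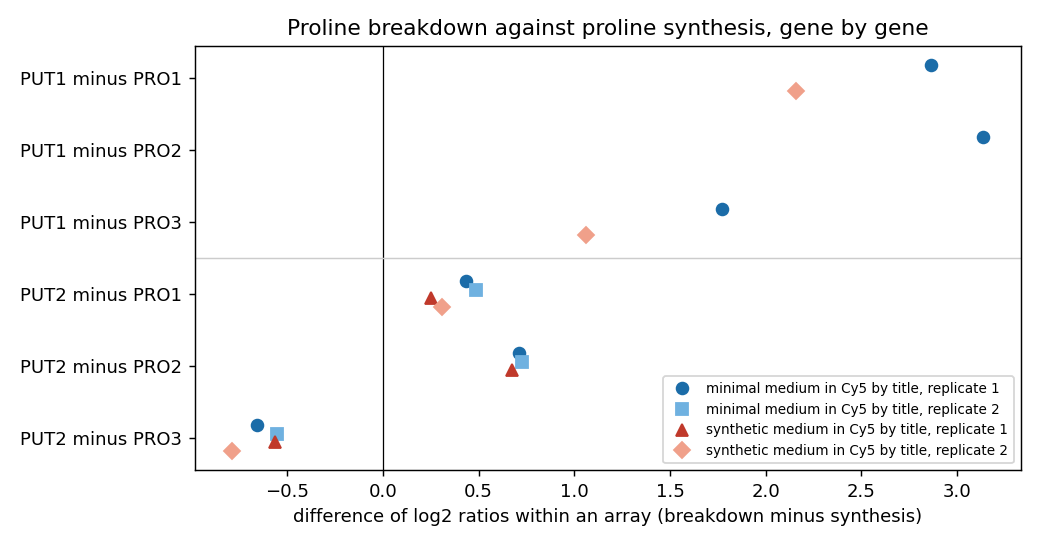
Difference in log2 ratio within an array (horizontal axis) between each gene of proline breakdown and each gene of proline synthesis, with a symbol for each array on which both genes had a value. All differences are above 0 except those of PUT2 minus PRO3, which run from -0.79 to -0.56.

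Arginine breakdown lay above the second enzyme of proline breakdown on all 4 arrays. CAR1 minus PUT2 was 0.38 to 0.78 with a mean of 0.60 ± 0.16, and CAR2 minus PUT2 was 0.74 to 0.97 with a mean of 0.89 ± 0.11 (SD, n = 4 arrays each). In the order of the mean log2 ratios, the enzymes thus ran from PUT1 through CAR2, PRO3, CAR1 and PUT2 to PRO1 and PRO2, with PRO3 and CAR1 not separated beyond their spread.

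Of the regulator genes, those of both pathway activators were lower in MM. PUT3, which encodes the zinc cluster activator of PUT1 and PUT2, had log2 ratios of -0.64, -0.92, -0.80 and -0.16, a mean of -0.63 ± 0.33 (SD, n = 4 arrays) with a limma adjusted p of 0.00389. All 4 arrays were below 0, but the second with SC in Cy5 stood near it, and 93.3% of the ORFs tested had a smaller SD. Without that array the log2 ratio was -0.78, and with the variance of PUT3 alone in place of the moderated one the call was lost (limma adjusted p = 0.0596). ARG81, which encodes the arginine-sensing zinc cluster protein of the ArgR/Mcm1 complex, had -0.79, -0.71, -0.53 and -0.78, a mean of -0.70 ± 0.12 (SD, n = 4 arrays), which is a 1.63-fold decrease (limma adjusted p = 0.000116).

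Enzyme genes and the genes of their known activators were set side by side within arrays. On the arrays with both values, the log2 ratio of PUT1 exceeded that of PUT3 by 2.75 and 1.68. PUT2 lay above PUT3 on 3 of 4 arrays, and the mean difference of 0.32 ± 0.36 (SD, n = 4 arrays) was smaller than its spread. CAR1 exceeded ARG81 by 0.76 to 1.26 and CAR2 exceeded ARG81 by 1.11 to 1.45 on the 4 arrays. The transcript level of a regulator gives no measure of the activity of its protein, and neither protein was measured here.

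UME6, which encodes a DNA-binding repressor that recruits a histone deacetylase, was not called. Its log2 ratios were -0.09, 0.20, 0.64 and 0.25, so 3 arrays lay above 0 and 1 below. The mean of 0.25 ± 0.30 (SD, n = 4 arrays) had an adjusted p of 0.0916 from limma and a 95% confidence interval of -0.02 to 0.52, so a rise of up to that size is within the error. Without the first array with MM in Cy5 it was 0.36 and passed (adjusted p = 0.0155 from limma), and without the first array with SC in Cy5 it was 0.12 and did not (adjusted p = 0.288). UME6 also passed the threshold of the study, an unadjusted P of 0.05 for the observed direction, as 75.2% of all ORFs tested did.

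The arrays of opposite dye orientation gave similar ratios for most of the 10 genes. UME6 differed most among the 8 genes with all 4 values, with a mean log2 ratio of 0.05 on the arrays with MM in Cy5 by title and 0.45 on those with SC in Cy5. PUT3 had -0.78 and -0.48 on the same pairs. With a term for orientation in limma, UME6 had the lowest unadjusted p of the 9 genes tested, at 0.0614 (adjusted p = 0.247), so no difference by orientation passed among them. Across all 5956 ORFs, 1 passed (0.0168%). With so few arrays in each orientation, this test can miss such differences. With the orientation term in the model, 4369 ORFs were called between the media, against 3891 without it.

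The 10 genes differed in how closely the arrays repeated each other. PRO1, CAR2, PRO2 and PUT2 were measured tightly, with SDs of 0.05 to 0.07, where the median SD over all ORFs tested was 0.14. CAR1, ARG81 and PRO3 lay near that median, at 0.12 to 0.13. PUT3 and UME6 lay above the upper quartile of 0.20, and both encode regulators, whereas ARG81 does not share their spread. Ratios of PUT3 and UME6 are therefore known less well than those of the enzymes, except for PUT1 with its 2 values.

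Genes around these pathways were tallied in lists chosen by function, with counts from the same limma fit and no test of a list. All 4 permeases listed for arginine and proline (CAN1, ALP1, GAP1 and PUT4) rose in MM, with a median log2 ratio of 0.38. Over all ORFs tested, 33.8% rose and the median was 0.03. Other amino acid permeases were not in the list. PUT4, the high-affinity proline permease, had 1.50, 1.35, 1.63 and 1.46 (mean 1.49 ± 0.12, SD, n = 4 arrays), the same direction as PUT1. CAN1, the arginine permease, was at 0.30 and the general permease GAP1 at 0.46. Both genes of urea use, which handles the second product of arginase, rose as well: the urea permease DUR3 to 1.96 ± 0.18 and the urea amidolyase DUR1,2 to 1.01 ± 0.20 (SD, n = 4 arrays each). Both of these log2 ratios lay above those of CAR1 and CAR2 on every array.

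Genes that use ornithine or make arginine went the other way or split. SPE1, the ornithine decarboxylase that starts polyamine synthesis and competes with CAR2 for ornithine, fell to a log2 ratio of -1.20 ± 0.14 (SD, n = 4 arrays). The later genes SPE2 and SPE3 rose to 0.21 and 0.52, the first of them not passing once the arrays were centered, and SPE4, at -0.19, did not pass. Of 10 genes of arginine synthesis, 8 fell and 2 did not pass, and the list had a median of -2.46, where 31.5% of all ORFs tested fell. Its lowest gene was ARG1, the argininosuccinate synthetase, at -3.52, and its highest ARG7 at 0.12, which did not pass. The decreases of PRO1 and PRO2 were smaller than those of the 8 genes, whose means lay at -1.56 or below.

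**Figure D4:**
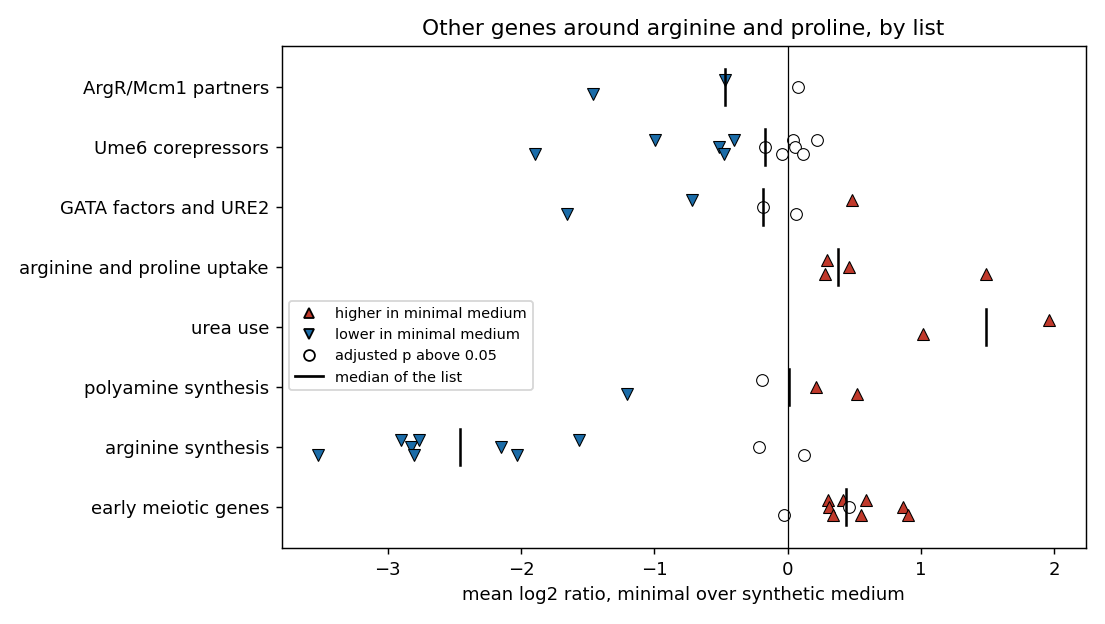
Mean log2 ratio of MM over SC (horizontal axis) of the genes of each list with values on at least 3 arrays, with the median of the list as a bar. Symbols give the limma call at an adjusted p of 0.05. Permeases and urea use lie above 0, and arginine synthesis lies far below, with a median of -2.46.

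Some partners of the regulators were lower and others were not called. Among the proteins that act with Arg81, ARG80 fell to a log2 ratio of -1.46 ± 0.18 and MCM1 to -0.47 ± 0.23, while ARG82, an inositol polyphosphate kinase, at 0.08 ± 0.05 did not pass (SD, n = 4 arrays each). Of 11 corepressor genes tested, most of them of the Rpd3L deacetylase complex that Ume6 recruits, 5 fell and 6 did not pass, with a median of -0.17, where 31.5% of all ORFs tested fell. PHO23 was the lowest at -1.90 and RXT2 the highest at 0.22, which did not pass. SIN3 and RPD3, named after their values were seen because they are the core of the complex, were at -0.51 (adjusted p = 0.0014 from limma) and 0.11 (adjusted p = 0.171).

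Early meiotic genes that Ume6 is known to repress were tallied as well. Of 13 listed, 10 were tested, 8 rose and 2 did not pass, with a median log2 ratio of 0.44, where 33.8% of all ORFs tested rose and their median was 0.03. DMC1, the meiotic recombinase, was the highest at 0.90 ± 0.18 and RED1, of the meiotic chromosome axis, the lowest at -0.02 ± 0.21 (SD, n = 4 arrays each). HOP2, named after its values were seen, had 1.06 and 0.77 on the arrays with SC in Cy5 and 0.25 and 0.13 on those with MM in Cy5. It was not alone in this. SPO13, also named after its values were seen, had 0.67 and 0.59 against 0.23 and 0.16. RED1 had 0.11 and 0.19 against -0.25 and -0.14. Of the 10 genes tested, DMC1 alone had a lower mean on the arrays with SC in Cy5, at 0.86 and 0.79 against 1.17 and 0.79. Each of the others had a higher mean there, from the values present. Among them, SPO11 had 0.52 and 0.55 against 0.30 and -0.00, and REC114 differed little, with 0.95 and 0.83 against 0.89 and 0.80. The part of dye orientation in the list as a whole was not tested. An orientation term was fitted to each ORF singly, and 1 of all 5956 passed.

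Among the genes of nitrogen catabolite repression, GLN3, the activator of CAR1 and PUT genes when good nitrogen is lacking, fell to a log2 ratio of -1.66 ± 0.07 (SD, n = 4 arrays). The GATA repressors moved apart, with DAL80 higher at 0.48 (n = 3 arrays) and GZF3 lower at -0.71 (n = 4 arrays). The activator GAT1 at 0.07 and URE2, which holds Gln3 in the cytosol, at -0.18 did not pass, although URE2 passed as lower once the arrays were centered and at the study's threshold. As with ARG81, the gene of an activator, GLN3, was thus lower while CAR1 and CAR2 were higher on the same arrays. PUT1 was higher on the 2 arrays that gave it a value, whereas PUT2 was lower, the same direction as PUT3 and GLN3. Whether these changes are linked was not tested.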

How the data were processed

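Per the study's methods, the authors spotted PCR-amplified ORFs, scanned the arrays, subtracted background, kept spots whose foreground exceeded the background by the methods' limit and normalized them by their mean. The deposited values are log2 ratios, 1 per ORF and array, and no genome build enters them. Spots of whole ORFs can cross-hybridize between similar genes and do not tell strands. No scanner intensities were used here. The columns were taken as MM over SC because all 4 correlated positively with the MM over SC ratios in the copied part of the study's supplementary array table. Of 6301 ORFs, 5801 were found in the NCBI R64 gene table, used for names only. The fit took ORFs measured on 3 arrays or more, in limma 3.58.1 (R 4.3.3) with the mean as the only coefficient, and p-values are two-sided with Benjamini-Hochberg adjustment over all ORFs tested, called at 0.05. In simulated data, the fit recovered 66 of 100 ORFs shifted by 0.5 and 89 of 100 shifted by 1 on the log2 scale. It also called 3 unshifted ORFs. The simulated noise was independent between arrays, far fewer ORFs were shifted than were called in the data, and shifts below 0.5 were not tried. The methods' Bayesian program was not run. Depth is set by the number of arrays.

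The 10 genes were given by name, all were described, and genes of lists of up to 6 were nameable, in longer lists the highest and the lowest. Members and lists were chosen with earlier results of these data known. Motifs in promoters were planned but not analysed here, as no sequence was used. Alternatives dropped single arrays, changed the centering or the scale of the arrays, included dye orientation or replicate number in the model, averaged same-numbered arrays, and changed the ORFs kept, the variance and the threshold.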

Additional observations from a re-analysis of the deposited data

How the results depend on the processing

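Of the 9 genes tested, CAR1, CAR2, PUT2, PRO1, PRO2, PRO3 and ARG81 kept their direction and their call under all alternatives run, except that PRO2 had no value among ORFs with values on all 4 arrays. PUT3 did not pass with its own variance alone (adjusted p = 0.0596 from limma). UME6 passed with a dye orientation term (adjusted p = 0.039), with same-numbered arrays averaged (adjusted p = 0.00707), without the first array with MM in Cy5 and at the study's threshold. Its log2 ratio ran from 0.12 to 0.36 when single arrays were left out. PUT1 could be tested only with ORFs on at least 2 arrays, and no alternative that leaves out an array was possible for it. Over all ORFs, 3074 (own variance) to 4479 (study's threshold) were called, against 3891. No pairing by replicate number was seen, since the deviations of same-numbered arrays from their orientation means correlated at 0.0121 across ORFs. Such a correlation cannot show whether same-numbered arrays shared RNA, as noise of each array can hide it. With a replicate block 3501 ORFs passed, and no call among the 9 genes tested changed.

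The mean of proline breakdown minus that of synthesis, 1.38 on 1 array, was 1.39 with arrays scaled, 1.79 without PRO3 and 1.65 with medians. Without PUT1 the difference was 0.17, over 3 arrays. Same-numbered arrays averaged gave 1.20, which is not a difference within an array. Those averages skipped missing values, so the genes entered from different arrays. With all enzymes kept, the within-array difference had no value without the first array with MM in Cy5. With centered arrays, 1 gene of polyamine synthesis was called higher in place of 2. At the study's threshold 2 were called lower in place of 1, and 1 gene of arginine synthesis was called higher. Under both, 9 genes of arginine synthesis were called lower in place of 8 and 3 of the GATA factors and URE2 in place of 2, and at the study's threshold 9 early meiotic genes were called higher in place of 8. The number of arrays limits the precision.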
